A study of Drosophila melanogaster with 2 samples.

Results

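In Drosophila melanogaster embryos that carry the protein CG7987 fused to GFP, 789 of 4410 ChIP-seq peaks had their summit in an intron at a moderate distance from a gene start. The summit is the base at which the authors' caller placed a peak's highest point. A summit was counted here when it lay inside an annotated gene, in no annotated exon of any transcript, with the nearest transcription start site (TSS) of any gene more than 500 bp and up to 3000 bp away. These 789 summits made up 17.9% of the list (95% Clopper-Pearson interval 16.8 to 19.1). Within the list the rule uses position only. The list itself holds the strongest pooled candidates and passed a reproducibility threshold that both replicates feed, so strength and replicate values shaped it before the rule was applied. They are compared with 2560 promoter summits, within 500 bp of a TSS, and with 543 far intronic summits, over 3000 bp from any TSS.

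The study has 1 group with 2 biological replicates of whole embryos of pooled sex, aged 0 to 24 h, from a stable transgenic line in which GFP follows the C-terminal end of CG7987. Chromatin was sheared by sonication, and every value is a mean over all cell types and ages in the collection. The labels conflict: the assay and antibody fields call both libraries a ChIP of CG7987, while a free-text line names them the input control, and no value here settles which is right. Depth is unknown, and the peak signal is the authors' own value on a scale not given in the sources used here. Coordinates are on dm6.

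Introns close to a gene start, first introns above all, are known in flies as frequent sites of enhancers, the DNA elements that set where and when a gene is transcribed. Many fly genes also have several start sites, so an intron of a long transcript can lie just upstream of the start of a shorter one. Promoters that are active in most fly cells often carry the DRE, the element read by the factor DREF, or the core promoter element called motif 1. The palindromic E-box CACGTG is the site of bHLH-leucine zipper factors such as Myc, Max and Mondo, and GTAAACA is the core of forkhead factor sites.

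The bases within 50 bp of 12 of these summits are printed for orientation, as the plus strand of the RefSeq release 6 sequence. The first 5 are the strongest summits that the display rule allowed, and the other 7 are the strongest holders of the called words described further on. Capitals mark CACGTG and 9 words of 6 bases that were more frequent at the summits than beside them, on either strand. These 9 are ACAGTG (at 86 of the 789 summits), CAAACA (178 summits), ATTTAC (114 summits), CACATG (71 summits), TAAACA (153 summits), TACACA (106 summits), GCAAAC (119 summits), TGTAAA (121 summits) and GTAAAC (83 summits). A match is a string of letters and not a shown binding site.
ush (chr2L:481243-481343): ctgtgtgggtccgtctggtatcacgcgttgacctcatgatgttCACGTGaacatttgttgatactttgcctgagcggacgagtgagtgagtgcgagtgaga
ush (chr2L:480260-480360): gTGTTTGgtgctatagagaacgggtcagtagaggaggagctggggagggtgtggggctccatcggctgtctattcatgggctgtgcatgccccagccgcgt
CG9663 (chr2L:3302158-3302258): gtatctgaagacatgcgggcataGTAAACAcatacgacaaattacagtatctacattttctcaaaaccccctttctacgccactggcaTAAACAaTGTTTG
cno (chr3R:5215483-5215583): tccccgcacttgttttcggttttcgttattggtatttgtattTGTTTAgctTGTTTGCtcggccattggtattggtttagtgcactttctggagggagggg
Pect (chr2L:13205453-13205553): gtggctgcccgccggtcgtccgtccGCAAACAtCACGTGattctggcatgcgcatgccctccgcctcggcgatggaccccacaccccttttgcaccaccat
Lk6 (chr3R:11761020-11761120): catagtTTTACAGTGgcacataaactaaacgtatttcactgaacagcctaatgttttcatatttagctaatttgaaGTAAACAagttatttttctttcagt
Bmcp (chr3L:11721498-11721598): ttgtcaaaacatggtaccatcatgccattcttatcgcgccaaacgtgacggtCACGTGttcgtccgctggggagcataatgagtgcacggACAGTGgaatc
Tre1 (chrX:5678019-5678119): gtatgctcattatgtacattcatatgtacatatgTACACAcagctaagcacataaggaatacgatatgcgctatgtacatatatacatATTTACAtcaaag
InR (chr3R:21590809-21590909): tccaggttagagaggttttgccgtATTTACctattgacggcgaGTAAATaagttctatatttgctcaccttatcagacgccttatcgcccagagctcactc
Oatp30B (chr2L:9525821-9525921): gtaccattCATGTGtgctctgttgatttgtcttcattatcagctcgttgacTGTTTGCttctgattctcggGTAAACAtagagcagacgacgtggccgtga
FASN1 (chr2L:3058578-3058678): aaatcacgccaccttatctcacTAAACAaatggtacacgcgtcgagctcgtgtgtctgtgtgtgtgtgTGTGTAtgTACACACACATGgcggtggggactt
CG9837 (chr3R:8810570-8810670): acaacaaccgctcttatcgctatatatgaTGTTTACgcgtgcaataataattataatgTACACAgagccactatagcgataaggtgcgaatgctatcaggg
The strongest summit, in ush, has CACGTG within a few bases of the centre of its window. The windows in CG9663, Lk6, Oatp30B and CG9837 hold GTAAAC inside the longer word GTAAACA, while the windows in cno and Pect hold GCAAAC inside GCAAACA. The second ush window has a single called word, at its edge.

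The summits lay at a median of 1279 bp from the nearest TSS, with quartiles of 821 and 1929 bp. They became sparser with distance. Introns held 65.3 summits per Mb between 500 and 1000 bp from a TSS (288 summits), 49.1 between 1000 and 1500 bp (185) and 42.1 between 1500 and 2000 bp (137). The density was 36.0 per Mb between 2000 and 2500 bp (102 summits) and 30.7 between 2500 and 3000 bp (77), where each upper limit belongs to its bin. The fall went on beyond the rule, with 27.4 per Mb up to 5000 bp, 19.5 from there to 10000 bp and 6.62 past 10000 bp. Over the whole range of the rule the density was 47.1 per Mb of 16.8 Mb. It was 15.1 per Mb in far introns, 141 per Mb in promoter windows and 32.9 per Mb over the arms as a whole. These are counts over sequence lengths, with no test.

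First introns held most of the summits. Of the 789, 639 (81.0%, interval 78.1 to 83.7) lay in the first intron of at least 1 transcript. First introns held 62.2 summits per Mb and other introns 23.1 per Mb. The gap was there at every distance: in the nearest bin first introns held 80.2 per Mb and other introns 31.7, and in the farthest they held 42.1 and 17.9. In far introns the densities were 25.8 per Mb for first and 9.23 per Mb for other introns. The introns were long, with a median of 5184 bp and quartiles of 2309 and 11365 bp.

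**Figure D1:**
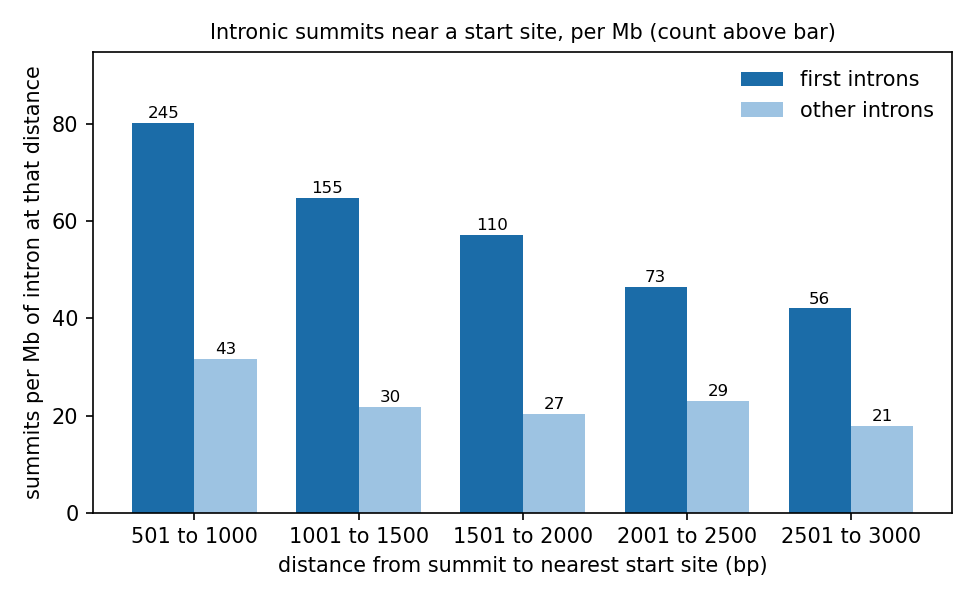
Summits per Mb of intron (vertical axis) by distance to the nearest start site in bp (horizontal axis), for first introns of any transcript and for other introns, with the number of summits above each bar. First introns fall from 80.2 per Mb in the nearest bin to 42.1 in the farthest, and other introns lie between 17.9 and 31.7.

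Direction relative to the start varied. Of the 789 summits, 466 (59.1%) lay downstream of the nearest TSS within that TSS's own gene, and 185 (23.4%) lay upstream of an internal start of a gene that holds them. The nearest TSS of the remaining 138 (17.5%) belonged to a gene that does not hold the summit. The ush summits are of this last kind, since their nearest TSS is that of cbt. Another summit of the list lay within 1000 bp of 201 of the 789 (25.5%) and within 5000 bp of 578 (73.3%). Over all 4410 listed summits these shares were 20.3% and 59.3%, and no test was made. In more than 1 gene were 61 (7.73%), against 6.55% of all listed and 5.71% of far intronic summits. A protein-coding host, meaning the gene whose intron holds the summit, was found for 778 (98.6%). The share was 99.3% of far intronic summits, and 64.2% of all listed summits, which include those outside genes.

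The 4 large autosomal arms held 49.4 summits per Mb of eligible intron, and X held 39.6 per Mb (129 summits). Males carry a single X, and the embryos were of both sexes; the part of dose in the lower density was not tested. The small chromosome 4 had 2 summits, or 9.99 per Mb.

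In strength these summits were spread like the rest of the list. Their signal ran from 139 to 11450, with quartiles of 163, 201 and 289, and the medians of promoter and far intronic summits were 202 and 198. Of the 789, 212 (26.9%, interval 23.8 to 30.1) were in the strongest 25% of the list, against 24.6% of promoter and 24.7% of far intronic summits. Neither difference passed the test: the odds ratio was 1.12 in both cases (intervals 0.932 to 1.35 and 0.867 to 1.45, adjusted p = 0.374 in both, Fisher's exact test). The odds ratios were below 1 when summits up to 1000 bp from a TSS were left out (0.952 and 0.951) and among the strongest candidates of replicate 1 alone (0.916 and 0.840). Median signal changed little with distance, from 210 in the nearest 500 bp bin to 193 in the farthest.

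The 20 strongest summits are described by the role of their hosts, beginning with transcription regulators. The strongest was in the first intron of ush, which encodes a zinc finger cofactor of GATA factors. It lay 1605 bp upstream of cbt, a gene for a zinc finger factor known from the sugar response. Its signal was 11450 in the list, 4724 in replicate 1 and 6853 in replicate 2, where its peak ranked 2 and 1 among the candidates. The next summit, 983 bp away and 622 bp upstream of cbt, had a signal of 5551 in the list, 3248 in replicate 1 and 2484 in replicate 2. Both are summits of the same listed peak, which is 3753 bp wide and also covers the cbt TSS. Another listed summit lay 535 bp from the second, so the 2 are not separate peaks apart from the cbt promoter. No other of the 789 reached 1200.

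Mondo encodes a bHLH-leucine zipper factor that senses sugar, crc the fly counterpart of the stress factor ATF4, and Trl the GAGA factor. The Mondo summit was 1303 bp downstream of its TSS, with a signal of 917 in the list, 375 in replicate 1 and 531 in replicate 2. The crc summit, upstream of an internal start, had 817 in the list, 318 in replicate 1 and 508 in replicate 2. The Trl summit had 772 in the list, 131 in replicate 1 and 621 in replicate 2, and its replicate 1 rank of 524 was the lowest place of any of the 20.

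Hosts that encode metabolic enzymes and carriers were also among the 20. Pect, an enzyme of phosphatidylethanolamine synthesis, had a summit 1741 bp downstream of its TSS with a signal of 1132 in the list, 463 in replicate 1 and 666 in replicate 2. Desat1, a fatty acid desaturase, had 1053 in the list, 417 in replicate 1 and 647 in replicate 2. FASN1, a fatty acid synthase, had 743 in the list, 376 in replicate 1 and 344 in replicate 2. These 3 are genes of lipid synthesis. PyK, pyruvate kinase of glycolysis, had 837 in the list, 292 in replicate 1 and 543 in replicate 2. The summit in aralar1, a mitochondrial aspartate and glutamate carrier, had 892 in the list, 386 in replicate 1 and 505 in replicate 2. Nadk1a, an NAD kinase, had 749 in the list, 310 in replicate 1 and 453 in replicate 2. Signals were higher in replicate 2 than in replicate 1 for all but FASN1 of these 6, but the scales of the replicates are not known to be equal.

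The cell junction protein cno had a summit with a signal of 1138 in the list, 420 in replicate 1 and 712 in replicate 2. Lk6, a kinase that phosphorylates the translation factor eIF4E, had 1066 in the list, 260 in replicate 1 and 783 in replicate 2. Tre1, a receptor needed for germ cell migration, had 935 in the list, 314 in replicate 1 and 603 in replicate 2. The other hosts of the 20 were CG9663 (1187 in the list), CG32772 (1008), CG9837 (992), the transporter gene Oatp30B (804), Tab2 (769) and Reph (722). All 20 summits matched a peak among the 4410 strongest of each replicate, at ranks no lower than 524 in replicate 1 and 325 in replicate 2. The 20 were picked by pooled signal, which both replicates feed, so these ranks follow in part from that choice. Of the 20, 17 had their nearest TSS in the host, 17 lay in intron 1, and 14 had a host whose promoter held a summit too. Over all 789 these shares were 82.5%, 80.6% and 64.0%, and the 20 are near them.

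The replicates placed the summits with moderate agreement of strength. Of the 789 peaks, 566 (71.7%, interval 68.5 to 74.9) overlapped a peak among the 4410 strongest of replicate 1, where the share over all listed peaks was 73.2%. For replicate 2 it was 694 (88.0%, interval 85.5 to 90.1), with 86.6% over all listed peaks. Both shares are near those of the whole list. Against promoter summits the odds ratios were 0.878 for replicate 1 (0.732 to 1.06, adjusted p = 0.331) and 1.24 for replicate 2 (0.972 to 1.60, adjusted p = 0.313, Fisher's exact test). Against far intronic summits they were 1.14 (0.888 to 1.45, adjusted p = 0.398) and 1.03 (0.724 to 1.45, adjusted p = 0.865, Fisher's exact test). In the stronger 50% of the list the replicate 2 odds ratios were 4.602 against promoter and 4.57 against far intronic summits, and neither passed (adjusted p = 0.409 in both, Fisher's exact test). All listed peaks had passed a reproducibility threshold that both replicates feed, so these shares describe the list and not binding in general.

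Both replicates had a match for 784 summits. Across these, the log10 signals of the replicates were correlated with r = 0.508 (Pearson), and rho was 0.395 (Spearman). The points share the 2 libraries and the threshold, and they are not independent replicates. The values were 0.449 and 0.305 for promoter summits and 0.587 and 0.437 for far intronic summits. Of the 789, 4 had no replicate 1 candidate and 1 had no replicate 2 candidate.

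**Figure D2:**
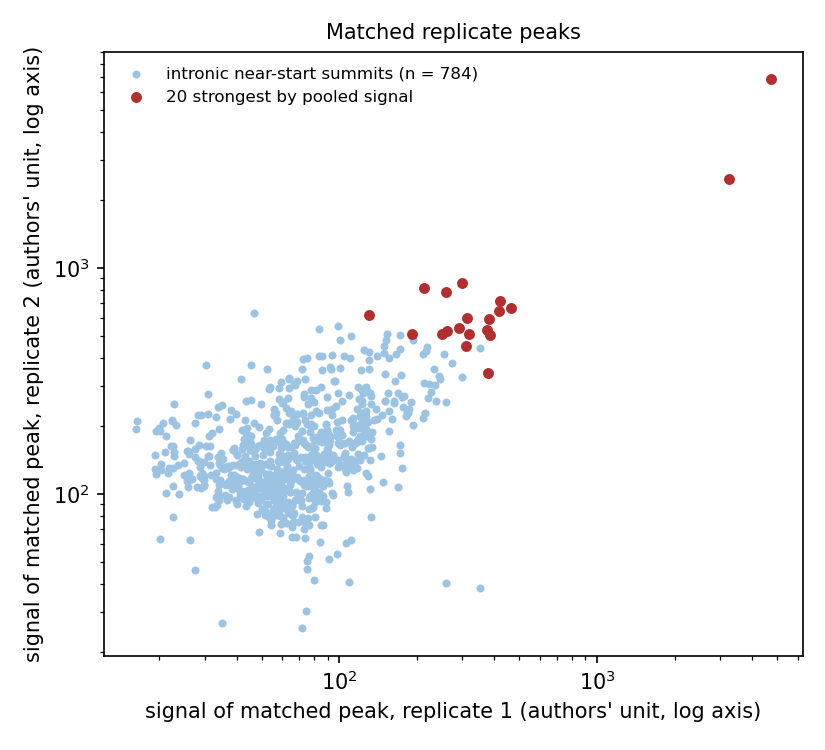
Signal of the overlapping peak with the nearest summit in replicate 1 (horizontal, log axis) and replicate 2 (vertical, log axis), in the authors' unit, for 784 summits. Red points are the 20 strongest by pooled signal; the ush pair stands alone at the upper right, and Trl is the red point farthest to the left.

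Some single summits ranked far apart. A summit in CG9837, 1829 bp from its TSS, was in place 70 in replicate 2 (signal 630) and 4961 in replicate 1 (signal 46.5). A summit in Cyt-c-p, a gene for cytochrome c, was in place 277 in replicate 2 and 10167 in replicate 1. Ctps (950 and 27263), Sin3A (665 and 16103) and ph-p (1151 and 27579), which encode CTP synthase, a corepressor and a Polycomb protein, followed in the same direction, replicate 2 first. The replicate 1 matches of Ctps and ph-p had summits 130 and 173 bp away, and another listed summit lay 202 bp from that in Sin3A. In the other direction a summit in Rtnl1, a reticulon gene, was in place 54 in replicate 1 and 16590 in replicate 2. Its replicate 1 match had a summit 114 bp away, and another listed summit lay 213 bp away. A second Lk6 summit (118 in replicate 1 and 15543 in replicate 2) took its replicate 1 rank from the peak of the stronger Lk6 summit 206 bp away. The next were atos (844 and 15351), Ttd14 (2124 and 26993) and mwh (493 and 6081), the last with another listed summit 200 bp away. These 10 are the widest rank ratios, 5 in each direction.

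The clearest sequence difference from promoter summits was in 2 promoter elements. The DRE, TATCGATA on either strand, was within 50 bp of 123 promoter summits (4.80%) and of 0 of the 789, which allows a share of up to 0.380%. Motif 1, searched as GGTCACACT, was at 92 promoter summits (3.59%) and at 0 of the 789, with the same limit of 0.380%. Both limits are a count of 3 over the 789, although no match was seen. The two-sided exact 95% interval reaches 0.466% for each. The 95% interval of the odds ratio reached up to 0.0944 for the DRE and 0.128 for motif 1 (adjusted p = 1.15e-13 and 1.61e-10, Fisher's exact test). Far intronic summits also had 0 of 543 for each. In windows 400 bp beside the 789 summits the shares were 0.127% for the DRE and 0.0634% for motif 1. Both are elements of promoters, and the rule keeps the 789 more than 500 bp from every TSS. A low share of them is therefore built into the comparison with promoter summits. In windows reaching 100 bp on each side, 4 of the 789 had the DRE, against 8.36% of promoter summits.

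Of 25 elements compared with promoter summits, 7 passed the test, or 28%, and these 2 were the strongest cases. The shorter word CGATA, which is part of the DRE, was at 111 of the 789 (14.1%) and at 25.1% of promoter summits (odds ratio 0.488, interval 0.388 to 0.610, adjusted p = 1.61e-10, Fisher's exact test). The share in windows 400 bp away was 11.2% beside the 789 summits and 11.3% beside promoter summits. As a part of the DRE, CGATA shares the limit that the distance rule sets on this comparison. The E-box CAGCTG was less frequent, at 5.32% against 8.95% (odds ratio 0.572, adjusted p = 0.00487, Fisher's exact test). So was CCGGAA, the core of ETS factor sites, at 1.65% against 3.63% (odds ratio 0.444, adjusted p = 0.0175, Fisher's exact test). The CTCF-type word AGNNGGCGC was at 6 of the 789 (0.760%) and at 2.50% of promoter summits (odds ratio 0.299, adjusted p = 0.00658, Fisher's exact test). In the other direction, AGATAA, a word of GATA factor sites, was at 8.87% of the 789 and 5.23% of promoter summits (odds ratio 1.76, interval 1.28 to 2.40, adjusted p = 0.00205, Fisher's exact test). In flanks AGATAA was at 7.03% for the 789 and 5.51% for promoter summits, and CCGGAA at 2.53% and 3.79%. The 2 sides differed for AGATAA, with 73 left and 38 right windows of the 789 against 70 at the summits. Far intronic summits had AGATAA at 10.3%, with 6.81% in their flanks, so the word is not particular to the 789. The flank shares were 3.87% and 4.61% for CAGCTG, and 1.14% and 1.17% for AGNNGGCGC. AGATAA and CCGGAA were thus no higher at promoter summits than in their flanks. The part of the surrounding sequence in these differences was not tested.

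The calls for TATCGATA, GGTCACACT and CGATA held in every alternative run of this comparison. Each run keeps the split by distance from a start site and reuses all or part of the summits or libraries. The low share of promoter elements that the rule builds in is thus in every run, and the repeated calls are not a sign of stability. Among the strongest candidates of replicate 1 alone CCGGAA and AGNNGGCGC lost theirs (odds ratios 0.747 and 0.801, adjusted p = 0.328 and 0.594, Fisher's exact test). AGNNGGCGC also lost its call in windows reaching 100 bp on each side, where its odds ratio was 0.797 (adjusted p = 0.528, Fisher's exact test). In the stronger 50% of the list the words AGATAA and CAGCTG and the CTCF-type word lost their calls at odds ratios of 1.496, 0.661 and 0.331 (adjusted p = 0.276, 0.298 and 0.114, Fisher's exact test), and CCGGAA passed at 0.284. When summits up to 1000 bp from a TSS were left out, CCGGAA and AGNNGGCGC passed at 0.267 and 0.156. Median GC content was 40.6% in the windows of the 789 and 44.6% in promoter windows, and 39.6% and 42.6% in their flanks; its part in these differences was not tested. Against far intronic summits, whose median GC content was also 40.6%, 0 of the 25 elements passed. The smallest adjusted p there was 0.0854, for AGNNGGCGC with 0.760% against 2.95% (odds ratio 0.252, Fisher's exact test). This element passed there when summits up to 1000 bp from a TSS were left out, at 2 summits (0.399%) with an odds ratio of 0.132 (adjusted p = 0.0347, Fisher's exact test). The interval of the AGATAA odds ratio against far introns was 0.576 to 1.25, and that of CGATA was 0.858 to 1.70.

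**Figure D3:**
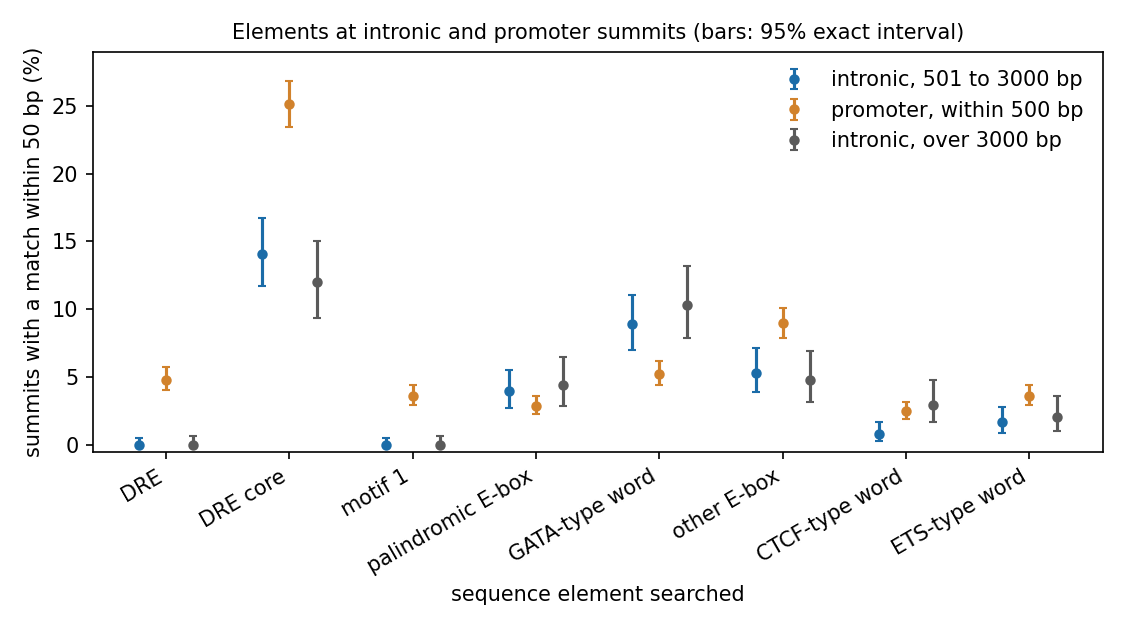
Share of summits with a match within 50 bp (vertical axis, %) for 8 elements (horizontal axis) in the 3 kinds of summit, with 95% two-sided exact intervals as bars. The DRE and motif 1 are at 0 in both kinds of intronic summit and at 4.80% and 3.59% in promoter summits.

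Set against their own flanks, the 789 summits were higher in 9 of 2080 words of 6 bases (0.433%) and lower in none, by a paired exact binomial test adjusted over all words. An unadjusted p below 0.05 was found for 4.86% of the words by the same exact test. That test keeps the larger p of the left and right side and passes no word whose sides differ in direction. The share to be met by chance is therefore below that threshold, and it was not measured. ACAGTG was at 86 summits (10.9%) and in 4.06% of flanking windows, 2.69-fold more (adjusted p = 7.86e-04, exact binomial test). CAAACA was at 178 summits (22.6%) and in 12.4% of flanks (adjusted p = 0.00106, exact binomial test). Of the other 7, ATTTAC had an adjusted p of 0.0355, and the remaining 6 each had 0.0471 (exact binomial test). Several of these words are shifted copies of each other and are not independent: GTAAAC overlaps both TGTAAA and TAAACA by 5 bases, CAAACA overlaps GCAAAC by 5, and ATTTAC read on the other strand is GTAAAT. At least 1 of the 9 was at 507 summits (64.3%) and in 44.0% of flanks.

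The word GTAAACA, picked after these values were seen and therefore not tested, was at 65 of the 789 summits (8.24%) and in 2.47% of flanks. Its shares were 10.3% at far intronic summits with 1.84% in their flanks, and 5.12% at promoter summits with 2.70% in theirs. ACAGTG was at 10.4% of promoter summits with 4.43% in flanks, and at 8.10% of far intronic summits with 2.67%. TAAACA was at 19.4% of the 789, 22.3% of far intronic and 12.4% of promoter summits, with 12.2%, 11.97% and 10.8% in flanks. The 9 words were chosen on the 789 summits, so their shares in the other kinds are a description.

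All 9 words were higher than in flanks in every alternative run of the word test, but their calls were not stable. These runs reuse all or part of the summits, or of the libraries, on which the 9 words were chosen. That choice favours the same direction, so the shared direction is a description and not a sign of stability. With the strongest candidates of replicate 2 alone 4 words passed, of which ACAGTG is 1 of the 9, and with those of replicate 1 alone 66 passed, 6 of the 9 among them. In the stronger 50% of the list 0 passed, with 55 words (2.64%) at an unadjusted p below 0.05 by the exact binomial test.

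**Figure D4:**
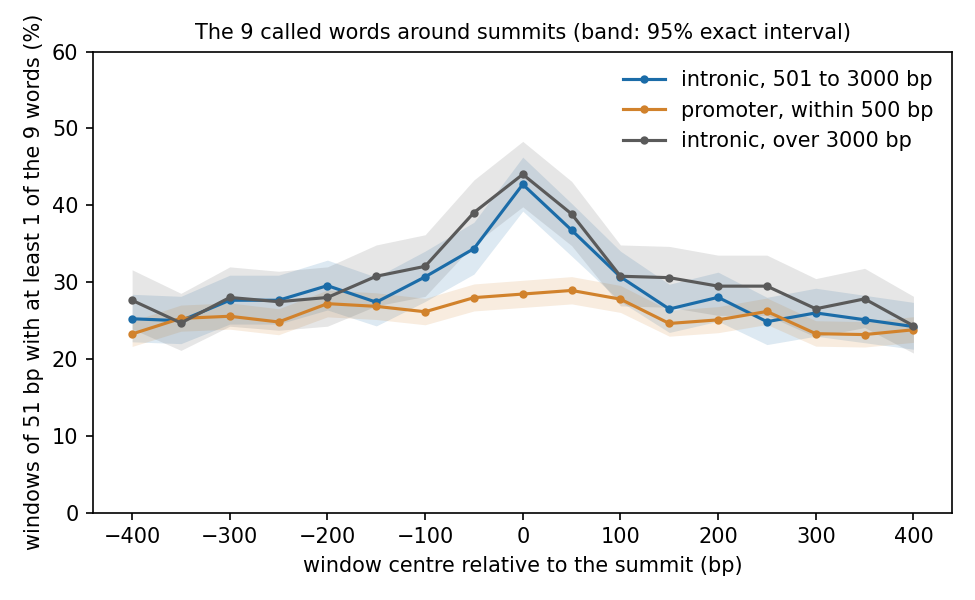
Share of 51 bp windows with at least 1 of the 9 words (vertical axis, %) by the position of the window centre relative to the summit in bp (horizontal axis); bands are 95% exact intervals. The words were chosen on the blue curve, which reaches 42.7% at the summit and lies at 24.2% to 25.2% in the outermost windows; at the summit the far intronic curve is at 44.0% and the promoter curve at 28.4%.

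Of the 25 elements, 0 passed against the flanks by the exact binomial test, and 1 had an unadjusted p below 0.05. That was CACGTG, at 31 summits (3.93%) and in 1.14% of flanks, 3.44-fold more (unadjusted p = 0.00540, adjusted p = 0.135, exact binomial test). Among the strongest candidates of replicate 1 alone it was 4.53-fold more frequent, at 43 summits (5.66%) against 1.25% of flanks, which passed (adjusted p = 1.39e-04, exact binomial test). Among those of replicate 2 alone it was 2.33-fold more frequent and did not pass. Against promoter summits its odds ratio was 1.39 (adjusted p = 0.291, Fisher's exact test). That odds ratio was 2.09 with replicate 1 alone, which passed (adjusted p = 0.00112, Fisher's exact test), and 1.00 with replicate 2 alone. The median signal was 252 for the 31 summits with the word and 201 for those without. By signal the 31 began with ush, Pect, InR, Bmcp, CG43367 and aralar1, at 11450, 1132, 698, 647, 475 and 439 in the list; the last 3 of these were named after their values were seen. InR encodes the insulin receptor and Bmcp a mitochondrial carrier.

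The summits fell in 621 genes, of which 604 were protein-coding. That was 6.65% of the 9085 protein-coding genes with any eligible sequence. The chance to hold a summit is tied to how much such sequence a gene has: the share was 0.837% of genes with under 1000 bp, 10.7% from 1000 to under 3000 bp, 21.1% from there to under 10000 bp and 32.8% with 10000 bp or more. A single summit was held by 460 genes, 2 by 116, 3 by 30, and 4 or more by 15.

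The largest number, 8, was in the noncoding gene lncRNA:CR44357, and 7 of its summits also lie in the overlapping gene CG1677. Of these the strongest had a signal of 303. Next came shn, a zinc finger factor of Dpp signalling, with 6 summits of 153 to 402. CHES-1-like, a forkhead factor, had 5 of 168 to 604, Tlk, a kinase gene, 5 of 181 to 596, Svil 5 of 147 to 379 and CG3764 5 of 178 to 326. With 4 each followed Lk6, HmgZ, HmgD, EcR, CG14434, beat-Ib, Sin3A and tna. HmgZ and HmgD overlap and encode HMG box proteins, and both have the same strongest summit, of 684.

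Of the 789 summits, 505 (64.0%, interval 60.5 to 67.4) were in a gene with another listed summit within 500 bp of one of its own TSSs. For far intronic summits it was 362 of 543 (66.7%), a difference that did not pass the test (odds ratio 0.889, interval 0.701 to 1.13, p = 0.321, Fisher's exact test). Among the strongest candidates of replicate 1 alone the odds ratio was 0.701 and passed (p = 0.00697, Fisher's exact test), and without summits up to 1000 bp from a TSS it was 1.03. Counted by gene, 346 of the 604 protein-coding hosts (57.3%) had such a promoter summit and 1885 of 8481 other genes with eligible sequence (22.2%). Gene length differs between these 2 sets of genes, and no test was made.

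Gene lists are described by counts beside the 6.65% of all eligible genes, and beside the number of summits that their eligible length would hold at the overall 47.1 per Mb. No list was tested, and some genes are in 2 lists. Summits are counted for the gene that holds them, and the nearest TSS can be that of another gene. Among the genes named below this was so for the strongest summits of ush, EcR, Hr4, InR, kis, ptc and hth. The lists were chosen with earlier results of these data known. In the nuclear receptor and ecdysone list 7 of 22 genes held 15 summits, where the overall density would give 8.29. EcR, the ecdysone receptor, had 4 summits of up to 547, Hnf4, a receptor linked to lipid use, 2 of up to 534, and Hr4 2 of up to 513. In the insulin and TOR list 8 of 27 genes held 13 summits, against 6.17 at the overall density. InR had 3 of up to 698, SNF4Agamma, a subunit of the energy sensor AMPK, 2 of up to 371, and REPTOR, a bZIP factor below TOR, 1 of 346.

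The bHLH and PAS list had 6 of 25 genes with 9 summits (4.61 at the overall density), led by Mondo, the hypoxia factor gene sima at 309 and crp at 290. The list of BTB and zinc finger factors had 11 of 34 genes with 18 summits (10.9), led by ush, Trl and fru, the last with a single summit of 293. The Polycomb and trithorax list had 4 of 28 genes with 6 summits (1.84), among them trx with 649, kis with 423 and ph-p with 211. The insulator list had 2 of 16 genes, Trl and mod(mdg4), with 3 summits (0.714), and the circadian list 4 of 13 with 6 (3.21), led by vri at 264, dco at 187 and Pdp1 at 159. All of these lists held more summits than the number in brackets. Because the lists were chosen with earlier results known, the choice may have built in part of this excess.

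The signalling list had 8 of 34 genes with 12 summits (8.18), led by InR, the Hedgehog receptor gene ptc at 492 and the BMP receptor gene wit at 236. Cytoskeleton and adhesion genes were close to the overall density, with 11 summits in 9 of 42 genes (10.2). The strongest there were in tsr, which encodes cofilin, at 470, in mbc at 397 and in the laminin gene LanB1 at 349. The segmentation and homeotic list was near it as well, with 4 summits in 4 of 26 genes (4.55): ptc at 492, Abd-B at 164, lab at 154 and hth at 146. Fewer than the overall density gives were found in RNA-binding and translation control genes, with 7 summits in 6 of 35 genes (11.99), in brat at 368, elav at 300 and pAbp at 297 among others. Neuronal channel and synapse genes had 0 in 27 genes, where their 169 kb would hold 7.95. Ribosomal protein genes also had 0 in 27, but with 5.34 kb of eligible sequence, which would hold 0.251.

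**Figure D5:**
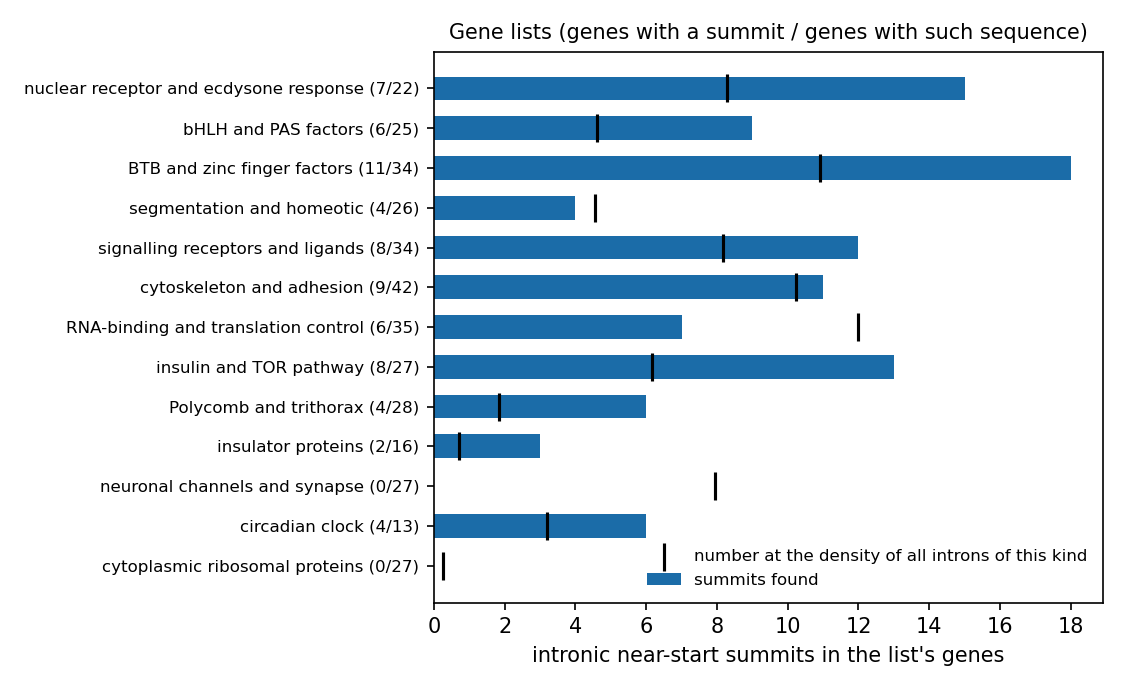
Number of summits (bars, horizontal axis) in the genes of 13 lists (vertical axis), with a black mark at the number that the eligible length of the list would hold at the density of all such introns. Brackets give genes with a summit and genes with eligible sequence; neuronal channel and synapse genes have 0 summits with a mark at 7.95.

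At the edges of the rule, the summits just inside were at 504 bp in beat-Ib (signal 244) and 509 bp in EcR (169), and at 2993 bp in trx (649) and 2996 bp in CG12991 (144). Just outside were intronic summits at 497 bp in ph-p (1297) and 498 bp in hebe (222), and at 3002 bp in CG33298 (151) and 3003 bp in Mob2 (141).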

How the data were processed

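Per the deposited readme texts, the authors called candidates for both replicates and for their pool, with 1 control library behind each list. From these came the list that passed their irreproducible discovery rate (IDR) threshold. Per the labels the assembly is dm6. Not given in the sources used here are the aligner, caller and threshold. Signal is the authors' deposited value for each peak, on a scale not given, and was used to describe and rank. By signal, the IDR list of 4410 is the top of the 30000 pooled candidates. Depth is unknown, and its effect on precision could not be measured. Intervals cover counting error over summits only.

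Summits were placed on the Ensembl 115 annotation of BDGP 6.54 without transposable elements, and on the RefSeq release 6 sequence, with coordinates counted from 1. A host is a gene that spans the summit, and a summit in overlapping genes counts for each. Windows of 101 bp centred on summits were set against equally long ones 400 bp to each side by a two-sided exact binomial test on the summits that differed, keeping the larger p, and with other summits by a two-sided Fisher's exact test. Benjamini-Hochberg adjustment was made in each family of tests, and an adjusted p under 0.05 counted as a call. Neighbouring summits are not independent and there are 2 libraries, so p-values describe this list and not further embryo collections. Replicate ranks are those of the overlapping candidate with the nearest summit.

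The 789 summits, the 13 gene lists and the 25 elements were chosen with earlier results of these data known. Named genes follow a rule: hosts of the 20 strongest summits, genes with 4 or more, up to 3 hosts per list, and the 5 widest rank gaps in each direction. Of the list symbols, 4 were matched through a synonym and 4 were not found. Sequences were shown for the 5 strongest summits and up to 2 per called word, leaving out 1 chromosome arm and windows that touch an exon. Alternatives covered the distance range, the TSS set, each replicate alone, the stronger 50% of the list, nearby summits, the strongest locus, window width, control position, replicate matching and all pooled candidates. The tools were scipy 1.17.1 and numpy 2.4.6 under Python 3.11.15, with pandas 2.3.3 for tables and matplotlib 3.10.9 for plots. The word test was also run on simulated sequences of independent random bases with planted words. That setting is simpler than genomic sequence, so the run does not measure the error rate of the test in these data.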

Additional observations from a re-analysis of the deposited data

How the results depend on the processing

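The summits were 11.4% of the list when those up to 1000 bp from a TSS were left out, 19.7% (5918 summits) of all pooled candidates, 17.9% (394) of the stronger 50% of the list, and 17.2% to 18.5% with 1 replicate left out. Words called against flanks numbered 1 when summits up to 1000 bp were left out, 0 in the stronger 50%, 2 without summits near a stronger one, 3 with control windows at 300 bp, and 4 to 66 with 1 replicate left out. Elements called against flanks numbered 0 to 4 with 1 replicate left out. Against far intronic summits 1, AGNNGGCGC (odds ratio 0.132, from 0.252), passed when summits up to 1000 bp were left out. Against promoter summits 4 passed in the stronger 50%, where AGATAA (1.496) and CAGCTG (0.661) and AGNNGGCGC (0.331) lost their calls. AGNNGGCGC lost its call in windows of 100 bp to each side (0.797) as well. The odds ratio for a host with a promoter summit was 1.03 without summits up to 1000 bp (p = 0.844), 0.643 in the stronger 50% (p = 0.00708), and 0.701 to 0.839 with 1 replicate left out, by Fisher's exact test. The odds ratios for the strongest 25% were 0.952 against promoter and 0.951 against far intronic summits without summits up to 1000 bp. With 1 replicate left out they were 0.916 to 1.05 and 0.840 to 1.25. Support in replicate 1 against promoter summits was 1.23 in the stronger 50%, and that in replicate 2 was 4.602 against promoter and 4.57 against far intronic summits. Support in replicate 1 against far intronic summits had an odds ratio of 1.29 among the candidates of replicate 2 (adjusted p = 0.0448, Fisher's exact test). Support in replicate 2 against far intronic summits was 0.970 without replicate 2 and 0.986 when replicate summits had to lie within 100 bp. The causes were not tested. No paired analysis was possible because there is 1 group. With depth unknown, the absence of a weak peak says nothing about binding.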
